A study of Mus musculus with 6 samples.

Results

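The 10 genes described here encode the alpha and beta tubulins measured in mouse liver, 5 alpha isotypes (Tuba1a, Tuba1b, Tuba1c, Tuba4a and Tuba8) and 5 beta isotypes (Tubb2a, Tubb2b, Tubb4b, Tubb5 and Tubb6). They are rows of a table of 17441 genes and were picked by symbol, with the values of these libraries already known. The iKO against WT values of the 10 genes are therefore given as a description, without p-values. Calls on them in the fit across all genes are part of that description. All 10 passed the filter on low counts. Of the 6 other alpha and beta tubulin genes in the table (Tuba3a, Tuba3b, Tubal3, Tubb1, Tubb3 and Tubb4a), 0 passed it, the highest reading of any of them being 1.06 CPM (counts scaled to a common library total with TMM factors) for Tubb4a in WT 3.

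Microtubules are built from dimers of 1 alpha and 1 beta tubulin. The isotypes of each family are encoded by separate genes and their proteins are most unlike in the acidic tail at the C-terminus, where enzymes add or remove amino acids and where motors and other proteins bind. Cells also hold down tubulin mRNA when free dimers are in excess, through TTC5, which recognises tubulin as it leaves the ribosome and leads to decay of the mRNA being translated. In hepatocytes microtubules carry lipoproteins and other secreted proteins towards the cell surface. NEK7, the kinase named by the knockout label, has a known part in building the mitotic spindle, itself made of microtubules.

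RNA-seq was run on 6 livers, 3 labelled iKO, meaning a tamoxifen-inducible knockout of NEK7 in the whole body. The other 3 carry the title Ctrl and are called wild type (WT) here. Both groups were sampled 10 days after tamoxifen, so the drug is shared. The driver of the recombinase, the strain, the age, the sex and the hour of collection are not stated in the sources used here. Labels number the livers and say no more of the animals, so the tests measure the spread between these samples. Library totals ran from 18139500 to 19912000 expected counts.

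The gene named by the knockout label, Nek7, stood at 50.2, 32.8 and 31.0 CPM in iKO 1 to 3 and at 55.5, 40.5 and 36.3 CPM in WT 1 to 3. In edgeR's quasi-likelihood test its log2 fold change was -0.22 (SE 0.23) at an adjusted p of 0.541. The gene total does not show whether a deleted exon is missing, and the libraries are called "labelled iKO" for that reason. Y-linked Ddx3y and Kdm5d together gave 573 to 883 expected counts in the libraries labelled iKO, against 1113 in WT 1 and 0 in WT 2 and WT 3. Values of WT 1 are therefore also set apart below. Fits on the 4 libraries with Y-linked reads compare the 3 labelled iKO with WT 1 alone. The spread of WT 1 is assumed to be that of the other libraries. A fit with a term for Y-linked reads rests its fold changes on the same comparison, so these fits are not separate checks. The clock gene Dbp stood at 99.8 to 144 CPM in the libraries labelled iKO and at 0.797 to 2.27 CPM in WT, and the clock gene Arntl at 1.56 to 3.86 CPM in the libraries labelled iKO and 30.5 to 32.4 CPM in WT, so a difference in time of day cannot be told apart from the label. Of 10 hepatocyte markers, all were detected and 2 were called higher and 0 lower (edgeR; 3 and 0 at an unadjusted p under 0.05, and 3 and 0 by DESeq2). In such bulk samples fewer cells of a type and less RNA per cell cannot be told apart.

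Near-identical isotypes share reads, and the extent differs by gene. Stretches of 50 bases were compared between the GENCODE M21 (GRCm38) transcripts of the 10 genes and the transcripts of all other protein-coding genes. In Tuba1a, Tuba1b and Tuba1c, neighbours on chromosome 15, 64.5%, 65.5% and 59.8% of the stretches also occurred in another gene. In Tubb2a and Tubb2b, neighbours on chromosome 13, the shares were 45.6% and 33.4%, with 712 stretches common to both. Tuba4a (chromosome 1), Tubb4b (chromosome 2) and Tubb6 shared 0.0%, Tubb5 (chromosome 17) 0.1% and Tuba8 (chromosome 6) 0.2%. Coding sequences were 96.5% identical between Tubb2a and Tubb2b and 97.1% to 98.3% identical within the Tuba1 trio, while Tuba4a was at most 85.2% identical to any other alpha isotype. In the deposited table, expected counts of 8 of the 10 genes were not whole in all 6 libraries, the others being Tubb6 (not whole in 4) and Tuba8 (not whole in 1). The 8 include Tuba4a, Tubb4b and Tubb5, at 0.0% to 0.1% in the search of protein-coding transcripts. Why their counts were not whole was not tested, so the search does not show that all their reads were unshared. Levels within the Tuba1 trio and of Tubb2b beside Tubb2a are less certain than their sums.

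The last 60 coding bases, which encode the tail and end with the stop codon, are shown for the beta pair and for Tuba4a, because the tail is the part in which isotypes usually differ. In the beta pair (GRCm38, minus strand, chr13:34074468-34074527 for Tubb2a and chr13:34127471-34127530 for Tubb2b) capitals mark the 3 positions at which they differ. None of these changes the encoded residue, so 0 of the 19 residues encoded here differ between Tubb2a and Tubb2b.
Tubb2a: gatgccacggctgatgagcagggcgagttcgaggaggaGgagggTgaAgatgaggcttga
Tubb2b: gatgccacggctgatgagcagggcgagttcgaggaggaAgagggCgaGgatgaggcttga

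Tuba4a (chr1:75215622-75215681, minus strand) is shown because it was the most abundant alpha isotype and shared 0.0% of its stretches. Its last codon before the stop is in capitals: that codon is gag, for glutamate, so its tail is encoded without the terminal tyrosine that is removed from and added back to other alpha tubulins in cells.
Tuba4a: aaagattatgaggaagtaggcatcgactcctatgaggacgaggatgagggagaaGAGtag

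Tubb2a, a beta isotype that many tissues express, had the widest gap between the groups among the 10 genes. It stood at 45.2, 27.4 and 31.3 CPM in iKO 1 to 3, against 166, 174 and 271 CPM in WT 1 to 3. Every library labelled iKO was below every WT library. The log2 fold change was -2.56 (SE 0.27), which puts Tubb2a at 17.0% of WT. Within WT, the liver with Y-linked reads had the lowest value, 166 CPM, and it was still above the highest library labelled iKO, 45.2 CPM. Between iKO 1 to 3 and WT 1 alone the log2 fold change was -2.25 (SE 0.32).

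Tubb2b, the neighbour of Tubb2a and best known from developing neurons, was near the floor of detection, at 0.799, 0.911 and 2.65 CPM in iKO 1 to 3 and 0.690, 0.666 and 1.11 CPM in WT 1 to 3. These values rest on 11.7 to 50.7 expected counts in the libraries labelled iKO and on 13.4 to 22.9 in WT. The groups overlapped, and iKO 3 held the highest value of all 6 libraries. The log2 fold change was 0.83 (SE 0.52), and 0.09 without iKO 3. Summed with Tubb2b, Tubb2a read 46.0, 28.4 and 33.9 CPM in iKO 1 to 3 and 166, 175 and 272 CPM in WT 1 to 3, so the gap was about as wide in the sum of the pair, however shared reads were split between them.

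The most abundant beta message in the libraries labelled iKO was Tubb4b, a broadly expressed isotype that also serves in cilia. Its values were 119.8, 102 and 131 CPM in iKO 1 to 3, and 119.5, 117 and 159 CPM in WT 1 to 3. The groups overlapped, with a log2 fold change of -0.16 (SE 0.19). Tubb5, the common housekeeping beta isotype, read 73.1, 63.4 and 83.0 CPM in iKO 1 to 3 and 74.2, 75.8 and 98.1 CPM in WT 1 to 3, also with overlap (log2 fold change -0.18, SE 0.18). These 2 genes kept nearly the same ratio in every liver. Per length, Tubb4b was 2.74, 2.70 and 2.64 times Tubb5 in iKO 1 to 3 and 2.70, 2.59 and 2.71 times Tubb5 in WT 1 to 3 (ratios of TPM, the deposited abundance per transcript length). Against WT 1 alone both log2 fold changes were close to 0, -0.02 (SE 0.33) for Tubb4b and -0.01 (SE 0.31) for Tubb5.

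Tubb6, a minor beta isotype, spread widely within both groups, at 7.99, 9.60 and 18.4 CPM in iKO 1 to 3 and 8.76, 17.4 and 21.4 CPM in WT 1 to 3. WT 1 lay with iKO 1 and iKO 2, and iKO 3 with WT 2 and WT 3. The log2 fold change was -0.40 (SE 0.40) over the 6 libraries and 0.46 (SE 0.46) between iKO 1 to 3 and WT 1, so its sign turned with the WT libraries used.

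Among the alpha isotypes Tuba4a was the most abundant. It read 134, 93.9 and 124 CPM in iKO 1 to 3 against 195, 224 and 282 CPM in WT 1 to 3, with no overlap. The log2 fold change was -0.99 (SE 0.22), or 50.3% of WT. Against WT 1 alone it was -0.72 (SE 0.34).

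Tuba1b and Tuba1c, the alpha isotypes found in most dividing and resting cells, were also lower in each library labelled iKO than in each WT library. Tuba1b read 72.7, 69.9 and 77.9 CPM in iKO 1 to 3, against 86.0, 100.3 and 139.5 CPM in WT 1 to 3 (log2 fold change -0.56, SE 0.20). For Tuba1c the values were 75.0, 60.5 and 80.8 CPM in iKO 1 to 3, against 96.3, 108 and 171 CPM in WT 1 to 3 (log2 fold change -0.79, SE 0.24). In both genes WT 3 was well above the other WT livers and WT 1 was the nearest to the libraries labelled iKO. Against WT 1 alone the log2 fold changes were -0.22 (SE 0.30) for Tuba1b and -0.41 (SE 0.31) for Tuba1c. Tuba1a, the isotype of developing neurons, was far less abundant, at 5.40, 6.27 and 11.6 CPM in iKO 1 to 3 and 10.6, 13.4 and 21.7 CPM in WT 1 to 3. The groups overlapped only through iKO 3 and WT 1 (log2 fold change -0.97, SE 0.35). Because the trio shares reads, its sum is the firmer value, 153, 137 and 170.3 CPM in iKO 1 to 3 and 193, 221 and 332 CPM in WT 1 to 3.

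Tuba8, an isotype known from muscle and testis, went the other way. It stood at 3.46, 8.74 and 15.4 CPM in iKO 1 to 3 and at 2.18, 3.51 and 3.43 CPM in WT 1 to 3. The groups overlapped by a narrow margin, iKO 1 being below WT 2. The log2 fold change was 1.60 (SE 0.49), and the spread within the label was large, with a coefficient of variation of 65.0% in the libraries labelled iKO and 24.6% in WT. Its counts were nearly all whole, so few of them were shared with another gene.

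**Figure D1:**
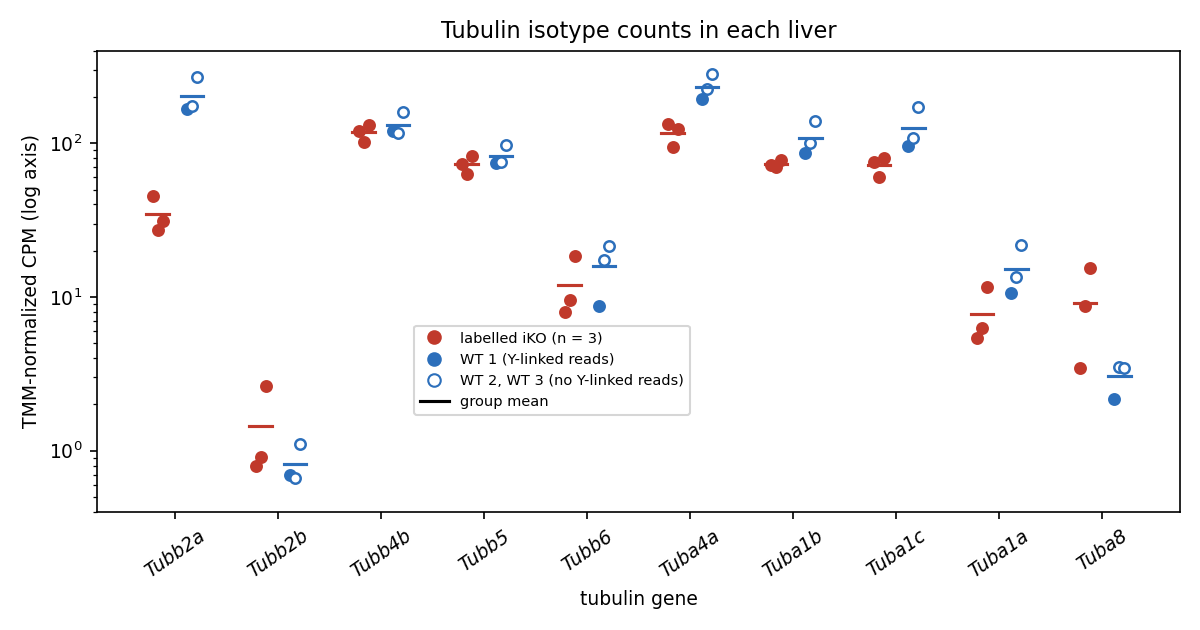
TMM-normalized CPM (log axis) of each tubulin gene in each of the 6 livers, with libraries labelled iKO in red, WT in blue, open circles for the WT libraries without Y-linked reads and a line at each group mean. Tubb2a lies between 27.4 and 45.2 CPM in the libraries labelled iKO and between 166 and 271 CPM in WT, while Tubb4b and Tubb5 overlap between the groups.

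In the fit across all genes 2 of the 10 tubulins, Tubb2a and Tuba4a, passed an adjusted p of 0.05, both lower in the libraries labelled iKO. Of all 13160 tested genes 15.4% passed, 8.07% lower and 7.31% higher. None of the 10 passed as higher (edgeR; 1, Tuba8, at an unadjusted p under 0.05 and by DESeq2, which called 10.5% of its genes higher and 9.78% lower). Groups did not overlap for 4 members, all with the libraries labelled iKO below WT, where 19.2% of tested genes had that pattern. Log2 fold changes were below 0 for 8 members and above 0 for 2, with a median of -0.48, against -0.02 over all tested genes. Tubb2a kept its call in all 6 fits that left out 1 library, a description of values known beforehand and no support for the call. The Tuba4a call held only without iKO 1 or without WT 1. These fits called 10.5%, 12.2% and 7.06% of tested genes without iKO 1, 2 and 3, and 13.7%, 3.69% and 6.79% without WT 1, 2 and 3. Tubb2a alone passed once Y-linked reads were a term in the model, and likewise on the 4 libraries that hold them, fits that called 1.40% and 1.05% of all tested genes. The median of the members was -0.12 in each of these fits, which rest on the same comparison with WT 1.

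**Figure D2:**
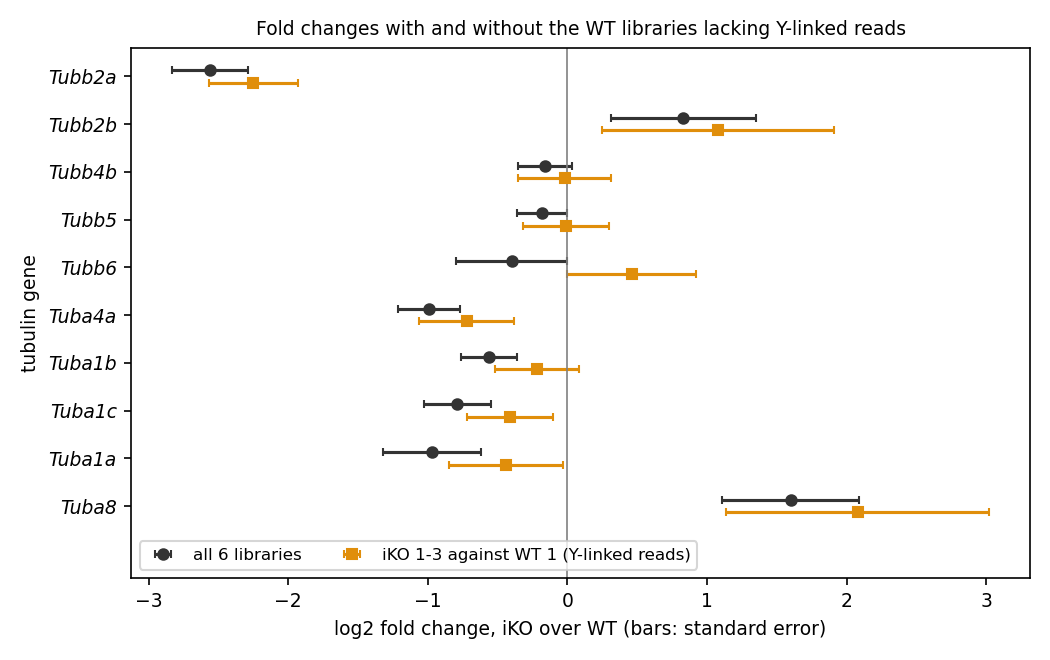
Log2 fold change of each tubulin gene, libraries labelled iKO over WT, from edgeR, with standard errors as bars, for all 6 libraries (circles) and for iKO 1 to 3 against WT 1 (squares). Tubb2a stays at -2.25 or lower in both, Tubb4b and Tubb5 lie near 0, and Tubb6 changes sign.

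Levels of different genes are compared per length, in TPM. In WT the order of the means was Tubb2a (243 TPM), Tuba4a (212), Tubb4b (158), Tuba1b (134), Tuba1c (121), Tubb5 (59.3), Tuba1a (18.5), Tubb6 (17.8), Tuba8 (4.07) and Tubb2b (0.81). Each step of that order held in 3 of 3 WT livers except Tuba1a over Tubb6, which held in 2. In the libraries labelled iKO the means ran from Tubb4b (114 TPM) through Tuba4a (84.7), Tuba1b (73.1), Tuba1c (56.0), Tubb5 (42.5), Tubb2a (32.2), Tubb6 (11.1), Tuba8 (10.5) and Tuba1a (7.89) to Tubb2b (1.23). There the neighbours Tuba4a and Tuba1b, Tubb5 and Tubb2a, Tubb6 and Tuba8, and Tuba8 and Tuba1a kept their order in 2 of 3 livers. Tubb2a was thus the first tubulin message in each WT liver, ranked 543 of all genes by mean TPM. In the libraries labelled iKO it was the sixth by mean, at rank 2517.

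Summed over the 10 genes, tubulin message came to 337, 412 and 551 TPM in iKO 1 to 3 and to 692, 1005 and 1209 TPM in WT 1 to 3. The mean was 433 ± 109 TPM in the libraries labelled iKO and 969 ± 260.1 TPM in WT (SD, n = 3 each), with no overlap. In this unit 25.8% of tested genes had every library labelled iKO below every WT library. TPM is not corrected for composition, and the median tested gene was shifted by -0.32 on the log2 scale between the group means in this unit. As TMM-normalized counts the sums were 538, 443 and 576 CPM in iKO 1 to 3 and 759, 834 and 1168 CPM in WT 1 to 3, so the mean of the libraries labelled iKO was 56.4% of the WT mean in CPM and 44.7% in TPM. Without Tubb2a the summed counts were 493, 415 and 545 CPM in iKO 1 to 3 and 593, 659.9 and 897 CPM in WT 1 to 3, or 67.6% of WT. The beta isotypes other than Tubb2a summed to 202, 176 and 235 CPM in iKO 1 to 3 and 203, 211 and 279 CPM in WT 1 to 3, and these ranges overlapped.

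Dimers need alpha and beta in equal number, and the messages were close to that in all 6 livers. The summed alpha TPM was 1.13, 1.17 and 1.16 times the summed beta TPM in iKO 1 to 3 and 0.966, 1.06 and 1.02 times it in WT 1 to 3. The mean ratio was 1.15 ± 0.0174 in the libraries labelled iKO and 1.02 ± 0.0490 in WT (SD, n = 3 each). The groups did not overlap in TPM. In expected counts, which are not per length, the ratios were 1.18, 1.17 and 1.16 in iKO 1 to 3 and 1.06, 1.16 and 1.12 in WT 1 to 3.

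**Figure D3:**
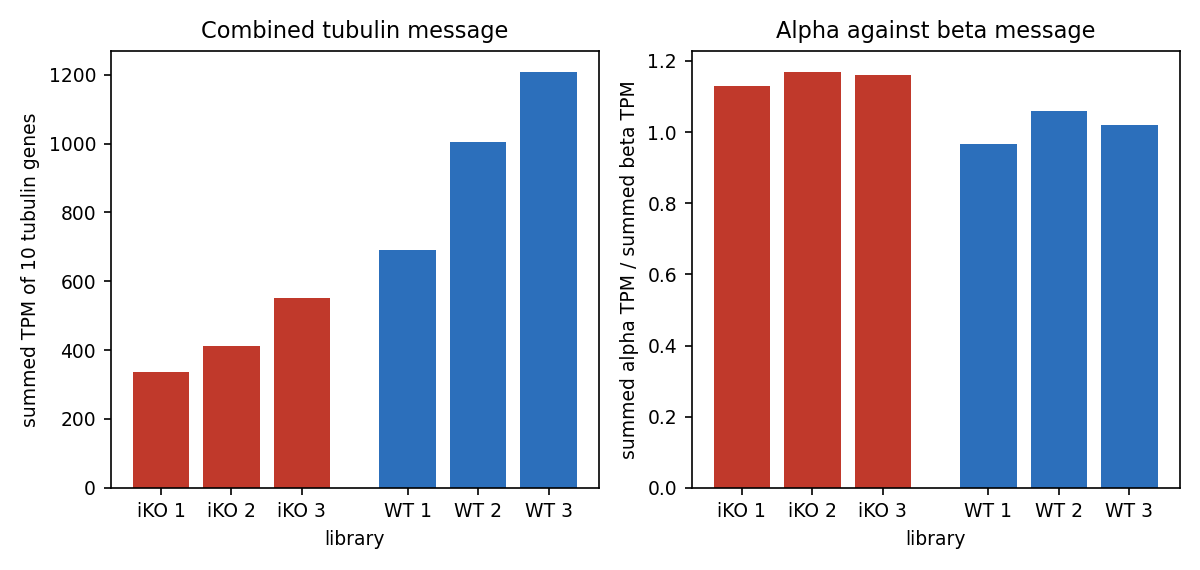
Left, summed TPM of the 10 tubulin genes in each library; right, summed alpha TPM divided by summed beta TPM (bars in red for libraries labelled iKO, in blue for WT). The sum lies between 337 and 551 TPM in the libraries labelled iKO and between 692 and 1209 TPM in WT, while the alpha to beta ratio stays between 0.966 and 1.17 throughout.

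Within the tubulin pool the largest difference in percentage points was in the share of Tubb2a, which did not overlap between the groups. Tubb2a made up 9.75%, 7.12% and 6.25% of tubulin TPM in iKO 1 to 3, against 24.9%, 23.9% and 26.3% in WT 1 to 3. Its mean share was 7.71% ± 1.82 in the libraries labelled iKO and 25.0% ± 1.22 in WT (SD, n = 3 each). Of the beta message alone it was 20.8%, 15.4% and 13.5% in iKO 1 to 3 and 48.9%, 49.2% and 53.1% in WT 1 to 3. WT 1, the WT liver with Y-linked reads, did not stand apart from WT 2 and WT 3 in this share.

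As shares add up to a whole, other isotypes took more of it, among them Tubb4b and Tubb5. Tubb4b held 25.9%, 26.7% and 26.3% of tubulin TPM in iKO 1 to 3, against 18.0%, 16.1% and 15.5% in WT 1 to 3. For Tubb5 the shares were 9.46%, 9.87% and 9.96% in iKO 1 to 3, against 6.69%, 6.23% and 5.71% in WT 1 to 3. Neither gene rose in CPM, as given above. The share of Tubb6 overlapped, at 1.58% to 3.38% in the libraries labelled iKO and 1.21% to 2.19% in WT. That of the alpha isotype Tuba1b did not, at 16.0% to 18.6% in the libraries labelled iKO and 13.3% to 14.1% in WT. The scarce Tuba8 and Tubb2b also held more in each library labelled iKO than in each WT library.

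Among the alpha isotypes no share moved by as many percentage points as that of Tubb2a among beta. Tuba4a made up 41.4%, 34.2% and 35.2% of alpha TPM in iKO 1 to 3 and 45.2%, 44.9% and 40.9% in WT 1 to 3, with overlap. The Tuba1 trio together held 57.1%, 61.2% and 58.5% of alpha TPM in iKO 1 to 3 and 54.1%, 54.1% and 58.3% in WT 1 to 3, so the ranges met between iKO 1 and WT 3. Tuba8 held 1.54%, 4.62% and 6.30% of alpha TPM in iKO 1 to 3, against 0.729%, 1.02% and 0.724% in WT 1 to 3, with no overlap on this scale. Its mean share of alpha was 4.15% in the libraries labelled iKO and 0.825% in WT. Tuba1b alone did not overlap either, at 30.3%, 34.6% and 29.8% of alpha TPM in iKO 1 to 3 and 27.0%, 27.4% and 27.6% in WT 1 to 3.

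**Figure D4:**
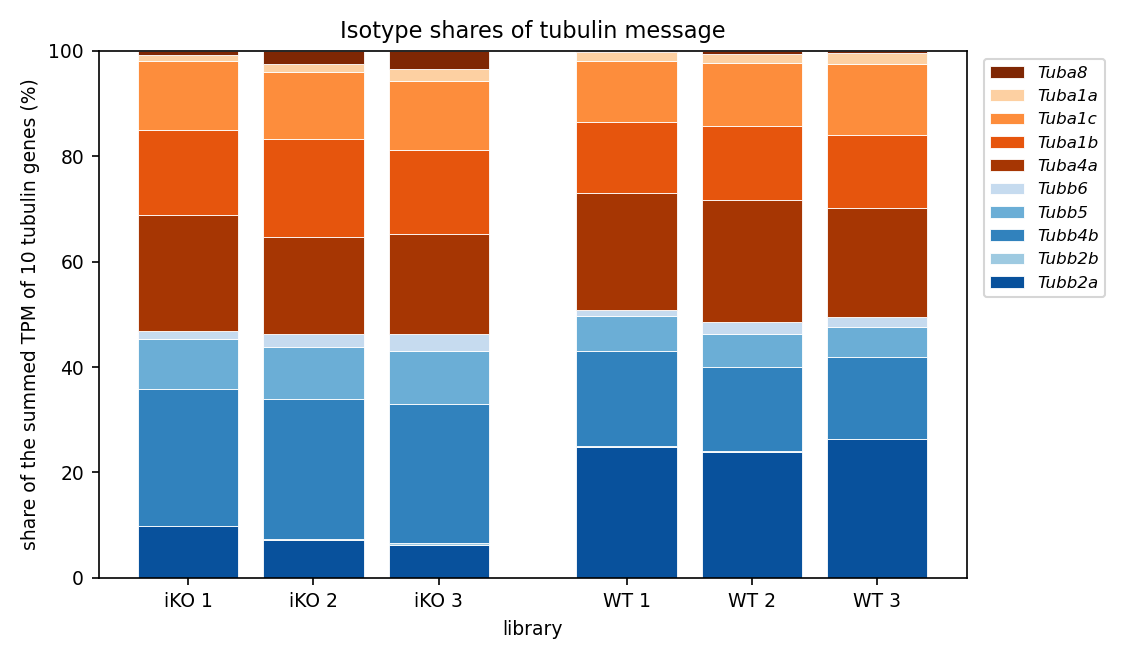
Share of each gene in the summed TPM of the 10 tubulin genes, 1 bar per library, beta isotypes in blue and alpha isotypes in orange and brown. The Tubb2a block at the bottom is 6.25% to 9.75% in the libraries labelled iKO and 23.9% to 26.3% in WT, and the Tubb4b block is larger in each library labelled iKO than in each WT library.

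Tubulins are expressed by every cell type of the liver, and markers of several types moved with the label. The 16 stellate cell and fibroblast markers summed to between 189 and 201 TPM in the libraries labelled iKO and between 361 and 721 TPM in WT, with 9 called lower and 0 higher (edgeR; 12 lower and 0 higher at an unadjusted p under 0.05 and by DESeq2). The 12 Kupffer cell and macrophage markers summed to 318 to 455 TPM in the libraries labelled iKO and 464 to 1006 TPM in WT, 7 of them called lower. For the 12 sinusoidal endothelial markers the sums were 53.2 to 123 TPM in the libraries labelled iKO and 134 to 282 TPM in WT, 4 called lower. In each of these lists WT 1 had the lowest sum of the WT livers. Of all tested genes 8.07% were called lower and 7.31% higher. The 8 cholangiocyte markers summed to 63.6, 274 and 523 TPM in iKO 1 to 3 and to 151, 327 and 208 TPM in WT 1 to 3. Of these markers 1 was called lower and 0 higher. The library with the most of them, iKO 3, was also the highest for Tuba8 and Tubb2b. Within each group Tuba8 followed the order of these sums. Between the groups it did not, as WT 2 had more of these markers than iKO 2 but less Tuba8 (3.51 against 8.74 CPM). Tubb2b followed the order within the libraries labelled iKO but not within WT. Whether these values are linked was not tested. Hepatocyte markers summed to 93575 to 116278 TPM in the libraries labelled iKO and 102468 to 145647 TPM in WT. All these sums carry the shift of TPM given above, -0.32 on the log2 scale for the median tested gene. By edgeR the median log2 fold change was 0.41 over the hepatocyte markers. It was -1.35 over the stellate, -0.92 over the Kupffer and -1.14 over the endothelial list. Of the markers of nerve and Schwann cells, Nefl was at 0 in every library and Sox10 in every library labelled iKO, and the list summed to at most 2.59 TPM in the libraries labelled iKO and 3.43 TPM in WT. Proliferation markers summed to 1.73 to 4.55 TPM in the libraries labelled iKO and 4.34 to 7.15 TPM in WT, with 0 of 7 called (edgeR; 2 lower at an unadjusted p under 0.05, 0 by DESeq2). The 10 leukocyte markers summed to 39.4 to 134 TPM in the libraries labelled iKO and 66.4 to 284 TPM in WT. Of the 9 tested, 2 were called lower and 0 higher. The 5 megakaryocyte and platelet markers summed to 3.30 to 6.24 TPM in the libraries labelled iKO and 3.07 to 7.25 TPM in WT. The part of any of these in the tubulin values was not tested.

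Genes whose profile over the 6 libraries was most like that of Tubb2a were ranked by the root mean square difference of log2 CPM after centring each gene, among the 12226 tested genes that averaged 1 CPM or more. The nearest 5 were Srgap3 (0.20), Fbln5 (0.25), Rps23rg1 (0.26), Papln (0.27) and Ntn1 (0.30), while the median gene was at 1.34. Srgap3 read 1.47, 0.643 and 0.882 CPM in iKO 1 to 3 and 3.82, 5.68 and 8.99 CPM in WT 1 to 3. Fbln5, an elastic fibre protein, read 3.00, 1.88 and 1.61 CPM in iKO 1 to 3 and 7.06, 11.4 and 15.8 CPM in WT 1 to 3. The closest other tubulin was Tuba4a at rank 419, with a difference of 0.79.

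Genes that act on tubulin were read in the same fit across all genes, from lists of the pathway that hold none of the 10 members. Of 86 tested genes in 6 lists, 9 were higher and 4 lower in the libraries labelled iKO at an adjusted p of 0.05. That is 15.1%, against 15.4% of all tested genes. With the term for Y-linked reads or on the 4 libraries with such reads, 0 of these genes passed by edgeR (11 and 8 at an unadjusted p under 0.05). The log2 fold changes of the 13 called genes kept their sign in both fits, which rest on the same comparison with WT 1. With the Y-linked term that of Pfdn6 was 1.00, against 0.94 without it, that of Dynll2 -0.67, against -0.63, and that of Mapre3 0.56, against 0.82.

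Folding of new tubulin begins on prefoldin and the CCT chaperonin and ends on the cofactors TBCA to TBCE. Of 22 genes in this group 2 rose, both prefoldin subunits, and 1 fell (7.31% and 8.07% of all tested genes did so). Pfdn6 stood at 48.0, 24.8 and 36.0 CPM in iKO 1 to 3, against 18.1, 16.6 and 21.8 CPM in WT 1 to 3 (log2 fold change 0.94, SE 0.23, adjusted p = 0.0286 by edgeR). Pfdn2 had a log2 fold change of 0.60 with an SE of 0.17 and also passed (adjusted p = 0.0432, edgeR). Tbcel, which encodes a protein related to TBCE that destabilises tubulin, stood at 38.5, 40.9 and 39.3 CPM in iKO 1 to 3, against 64.2, 59.1 and 57.4 CPM in WT 1 to 3 (log2 fold change -0.61, SE 0.14, adjusted p = 0.0229 by edgeR). The calls of Pfdn2 and Tbcel held in 1 of the 6 fits that left out a library and that of Pfdn6 in 2, with adjusted p up to 0.163, 0.120 and 0.114, each without WT 2. Over the 12995 tested genes with an effective length, log2 fold change and length correlated at a Spearman rho of -0.35. After a correction for transcript length, which left 11.5% of all tested genes called, none of the 3 passed (adjusted p = 0.0854 for Pfdn2, 0.134 for Tbcel and 0.141 for Pfdn6).

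The machinery that lowers tubulin mRNA when dimers are in excess was read through 6 genes. Of these 1 was lower and 0 higher (8.07% and 7.31% of all tested genes were so). Cnot1, the scaffold of the CCR4-NOT deadenylase, was at 45.0, 66.2 and 42.8 CPM in iKO 1 to 3, against 110.1, 107 and 104 CPM in WT 1 to 3. It fell by 1.06 on the log2 scale (SE 0.20, adjusted p = 0.00988 by edgeR) and its call held in all 6 fits that left out a library and after the correction for transcript length (adjusted p = 0.0271). In the fit that takes Y-linked reads as a term its log2 fold change was -1.10 and did not pass (adjusted p = 0.103). Ttc5 itself did not pass (adjusted p = 0.485), at a log2 fold change of -0.20 with an SE of 0.18. Nor did Scaper, which links TTC5 to the deadenylase (-0.32, SE 0.26, adjusted p = 0.422), or Cnot11, the docking subunit (0.27, SE 0.14, adjusted p = 0.213). Cnot7 (0.21, SE 0.22, adjusted p = 0.518 by edgeR) and Cnot8 (-0.31, SE 0.16, adjusted p = 0.19) did not pass either.

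Of 11 enzymes and partners that modify tubulin tails, other than the TTLL ligases, 1 was higher, as were 7.31% of all tested genes. Tpgs1, a subunit of the polyglutamylase complex, read 25.1, 16.8 and 17.6 CPM in iKO 1 to 3, against 12.1, 12.2 and 12.2 CPM in WT 1 to 3 (adjusted p = 0.0346 by edgeR). Its call held in 1 of the 6 fits that left out a library (adjusted p up to 0.125, without WT 2). After the correction for transcript length its log2 fold change was 0.36, against 0.70 without it, and the call ended (adjusted p = 0.166). None was lower (edgeR; 1 at an unadjusted p under 0.05, 0 by DESeq2). Ttl, which restores the terminal tyrosine, did not pass (adjusted p = 0.131), at a log2 fold change of -0.51 with an SE of 0.21.

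Among 25 genes of microtubule binding and dynamics 1 rose and 1 fell (7.31% and 8.07% of all tested genes did so). Mapre3, which encodes the plus-end protein EB3, stood at 78.5, 58.5 and 57.5 CPM in iKO 1 to 3, against 43.9, 30.0 and 36.5 CPM in WT 1 to 3 (log2 fold change 0.82, SE 0.20, adjusted p = 0.0254 by edgeR). Clasp2, a protein that stabilises plus ends, was at 6.06, 8.47 and 6.80 CPM in iKO 1 to 3, against 10.3, 12.3 and 11.6 CPM in WT 1 to 3 (adjusted p = 0.0432). The Mapre3 call held in 3 of the 6 fits that left out a library and the Clasp2 call in 1, with adjusted p up to 0.126 and 0.20, each without WT 2. Clasp2 also lost its call after the correction for transcript length (log2 fold change -0.41, against -0.68 without it, adjusted p = 0.143). Clip1 gained a call with that correction (log2 fold change 0.70, against 0.43 without it, adjusted p = 0.0136 by edgeR).

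Of 20 motor genes 5 were higher and 1 lower, where 7.31% of all tested genes were higher and 8.07% lower. Whether the lists differ from each other was not tested. Klc4, a kinesin light chain, read 91.0, 73.7 and 84.7 CPM in iKO 1 to 3, against 52.7, 48.8 and 51.1 CPM in WT 1 to 3 (log2 fold change 0.71, SE 0.16, adjusted p = 0.0185 by edgeR). Klc2, Dynll1, Dynlrb1 and Dctn3, parts of kinesin, dynein and dynactin, rose by 0.53 to 0.77 on the log2 scale. The dynein light chain Dynll2 went the other way from its paralog Dynll1, at 106, 92.3 and 79.9 CPM in iKO 1 to 3, against 148, 136 and 147 CPM in WT 1 to 3 (log2 fold change -0.63, SE 0.17, adjusted p = 0.0394). Of the 6 fits that left out a library, the Klc4 call held in 3, that of Dynll1 in 2, those of Dynll2, Dynlrb1 and Dctn3 in 1 each and that of Klc2 in 0. Each had its highest adjusted p without WT 2 (0.103 to 0.174). After the correction for transcript length Dynlrb1, Dctn3 and Dynll1 no longer passed (adjusted p = 0.437, 0.153 and 0.0537). Their log2 fold changes were then 0.18, 0.37 and 0.69, against 0.72, 0.77 and 0.77 without the correction. Of the 2 tested distant tubulins, delta (Tubd1, log2 fold change 0.30, SE 0.26) and epsilon (Tube1, -1.29, SE 0.53), 0 passed (edgeR; 1 lower at an unadjusted p under 0.05, 0 by DESeq2).

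Promoters of the isotype with the widest gap and of the most abundant beta isotype in the libraries labelled iKO are shown side by side, as the 250 bases before the annotated start (RefSeq, GRCm38.p6). On both strands, 5 motifs were searched in 8 of the 10 members, those with an entry, and in 32851 promoters of the same length. CCAAT occurred in 4 of the 8 and in 33.8% of all promoters, TATAAA in 1 and in 12.4%, GGGCGG in 5 and in 32.7%, and CACGTG in 2 and in 6.0%. TGACGTCA, searched after the sequence had been read, occurred in 1 and in 1.5%. Capitals mark each CCAAT, and the TATAAA and TGACGTCA of Tubb2a. The window of Tubb2a (chr13:34078009-34078258, minus strand) held TGACGTCA and TATAAA once each and CCAAT 0 times. That of Tubb4b (chr2:25224703-25224952, minus strand) held CCAAT 5 times, and that of Tubb5 held it in 2 places. Tuba1a and Tuba1c, with log2 fold changes of -0.97 and -0.79, held it once each.
Tubb2a: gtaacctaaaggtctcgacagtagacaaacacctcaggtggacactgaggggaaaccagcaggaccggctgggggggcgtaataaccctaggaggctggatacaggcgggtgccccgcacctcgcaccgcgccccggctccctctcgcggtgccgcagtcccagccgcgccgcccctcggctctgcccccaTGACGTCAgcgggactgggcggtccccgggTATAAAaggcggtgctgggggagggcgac
Tubb4b: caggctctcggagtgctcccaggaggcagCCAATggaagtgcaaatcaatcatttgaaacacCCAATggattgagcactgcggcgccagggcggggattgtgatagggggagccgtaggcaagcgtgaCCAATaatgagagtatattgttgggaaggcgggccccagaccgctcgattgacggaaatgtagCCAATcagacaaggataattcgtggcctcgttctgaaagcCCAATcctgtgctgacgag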

How the data were processed

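The submitters' processing notes name the mouse build mm9, RSEM 1.2.12, Bowtie2 2.2.5 and HISAT2 2.0.4. The authors deposited expected counts, FPKM and TPM per gene and library. Per the file headers the counts are read counts, and since many are not whole they are taken as RSEM estimates. Strand use and read length are not stated in the sources used here.

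After rounding to whole numbers, the expected counts went through edgeR 4.0.16 in R 4.3.3 with TMM factors (0.780 in iKO 1 to 1.18 in WT 2) and its filterByExpr filter. The robust quasi-likelihood test was adjusted by Benjamini-Hochberg over 13160 genes, and a called gene had an adjusted p under 0.05. SE is the log2 fold change divided by the root of F. Shares, sums and ratios use TPM as deposited. Whole means within 0.001. Promoters and coding ends come from GRCm38 annotation, not from the files' build. Coding identity was computed with Biopython 1.88. On simulated counts for iKO against WT (12988 genes), 37 of 100 genes with a 2-fold change and 92 of 100 with a 4-fold change were found, and 12 of 141 calls were false.

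The members, the lists and the tests were chosen with earlier results of these data known. The rule for names takes the 10 members, Nek7, related-list genes that were called, the 5 genes nearest Tubb2a, the Y-linked and clock genes and markers at 0. Genes named beyond it (Ttc5, Scaper, Cnot11, Cnot7, Cnot8, Ttl, Clip1, Tubd1 and Tube1) were chosen after their values were seen. Alternatives were a replicate block, 6 fits without 1 library each, RLE or upper-quartile factors, no filter, DESeq2 1.42.0, limma 3.58.1 with log2(FPKM + 1) or log2(FPKM + 0.1), an offset for transcript length, a term for Y-linked reads, and only the 4 libraries with such reads (over 10 expected counts of Ddx3y and Kdm5d).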

Additional observations from a re-analysis of the deposited data

How the results depend on the processing

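The members were chosen with these values known, so refits of the same libraries describe them and are no support. The log2 fold change of Tubb2a ran from -2.79 to -2.25 over the 16 alternative fits. Tuba4a was lower in all 16 and past the threshold in 10. The sign of each other member also held in all 16, except for Tubb6. Its log2 fold change was 0.46 in both fits that take account of Y-linked reads, which rest on the same comparison with WT 1. Members called numbered 5 with DESeq2, 5 with the replicate block, 4 after the correction for transcript length, 1 with the term for Y-linked reads and 1 on the 4 libraries with them, and 1 to 3 when a library was left out; the members added with DESeq2 and with the block were Tuba1a, Tuba1c and Tuba8. The related genes called (13) numbered 6 with log2(FPKM + 1), 6 with log2(FPKM + 0.1), 7 with the replicate block, 6 after the length correction, 0 and 0 with the Y-linked term and on the 4 libraries, and 1 to 11 with a library left out. All calls (2024) numbered 184 with the Y-linked term, 143 on the 4 libraries and 491 to 1840 with a library left out, the lowest without WT 2; the limma fit of log2(FPKM + 1) split 1352 calls into 421 higher and 931 lower, against 962 and 1062. The cause of these changes was not tested.

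The median of the members ran from -0.70 to -0.24 with a library left out. On log2(FPKM + 1) the median tested gene lay at -0.12 and the members' at -0.61. As a share of tubulin expected counts Tubb2a was 6.68% in the libraries labelled iKO and 22.0% in WT, and the mean alpha to beta ratio of counts was 1.17 in the libraries labelled iKO and 1.11 in WT; in WT 1 alone the TPM ratio was 0.966 and the summed TPM 692. With a library left out, the Tubb2a share ran from 6.68% to 8.43% in the libraries labelled iKO and from 24.4% to 25.6% in WT, the alpha to beta ratio from 1.15 to 1.16 in the libraries labelled iKO and from 0.993 to 1.04 in WT, and the sum from 374 to 482 TPM in the libraries labelled iKO and from 849 to 1107 TPM in WT. The labels state nothing that livers of the same number share. Their deviations from the group means correlated at 0.20, 0.21 and 0.05 for numbers 1 to 3. Of the 3 libraries labelled iKO, 2 correlated best with their own number. The chi-square per gene was 143 and 164 between iKO 1 and iKO 2 or 3, against 41 between iKO 2 and iKO 3. It was 183 and 199 between WT 1 and WT 2 or 3, against 38.4 between WT 2 and WT 3. What sets iKO 1 and WT 1 apart from their groups was not tested. The replicate block gave 1710 calls. Depth limits Tubb2b, read from 11.7 to 50.7 expected counts.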
